A study of Xenopus laevis with 12 samples.

Results

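The Distal-less (dlx) genes of the frog Xenopus laevis are represented on the array by 6 of 15491 probe sets, chosen because their single annotated gene symbol starts with dlx and a digit. They report 6 gene copies: dlx2.L, dlx2.S, dlx3.L, dlx3.S, dlx5.L and dlx6.S. This species carries 2 copies of many genes, and .L and .S name the copy on the longer or the shorter chromosome of a pair. After the lowest 25% of probe sets by mean signal had been left out, 5 of the 6 were among the 11618 probe sets tested, and dlx2.S was not, with a mean of 5.24 against a limit of 5.26 on the log2 scale. The 12 arrays form 4 groups of 3: Geminin-injected and uninjected explants of embryonic ectoderm at stage 10.5, early in gastrulation, and at stage 12, late in it. Injected explants came from embryos given 300 pg of an RNA for Xenopus Geminin in a form named as lacking its coil, placed in the animal hemisphere of both cells at the 2-cell stage. All explants, controls included, were animal caps cut at stage 8 to 9, with 80 caps making up a sample, and were cultured at 25 °C in the saline 0.7x MMR. The controls carried no injected RNA, and an effect of the injection cannot be told apart from one of Geminin. An animal cap also lacks the mesoderm and endoderm that underlie ectoderm in the embryo.

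Dlx genes encode homeodomain transcription factors related to Distal-less of Drosophila. In vertebrate embryos dlx3 and dlx5 are switched on in ectoderm outside the neural plate, where BMP signalling is active, and help to place the border between neural plate and epidermis. In vertebrates these genes typically lie in pairs, and dlx2 and its relatives are also known from the neural crest, the branchial arches and the forebrain. Geminin is an inhibitor of Cdt1, which licenses DNA replication, and has a known role in the formation of neural tissue. Whether the injected form, named as lacking its coil, acts on Cdt1 was not tested. In RefSeq's annotation of the assembly Xenopus_laevis_v10.1, used here for names and neighbours only, dlx5.L lies next to dlx6.L and dlx6.S next to dlx5.S. The array thus reads dlx5 from one copy of this pair and dlx6 from the other. Probe sets can cross-hybridise between the closely related .L and .S copies.

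Median deposited intensity ranged from 49.0 to 145.7 over the arrays, and levels are therefore also given as quantile-normalised log2(intensity + 16). The injected gene was checked first. The gmnn.L probe set read 3203 to 13754 in injected explants and 116 to 375 in 5 of the 6 uninjected libraries. The library labelled uninjected, stage 12, experiment 3 read 4576. The gmnn.S probe set read 575 to 1278 in uninjected and 730 to 1624 in injected explants at stage 10.5. Its ranges at stage 12 were 49.9 to 261 and 145 to 513. The gmnn.S change was 0.43 ± 0.13 at stage 10.5 (limma adjusted p = 0.0527) and 1.09 ± 0.13 at stage 12 (adjusted p = 0.000114). For uninjected explants of stage 12, experiment 2, one label names stage 10.5, whereas title and stage label give stage 12, which was followed. Its profile correlated at 0.99 with that of uninjected experiment 3. At stage 12 the arrays of experiments 2 and 3 were close to each other (r = 0.99 uninjected and 0.982 injected, against 0.887 to 0.919 for the other array pairs within a group). No source used here says whether different embryo batches were used, so p-values at stage 12 may rest on fewer than 3 independent pairs. Of the markers of the labelled tissue, the 18 ectodermal probe sets summed to 13659 to 36981 in uninjected arrays. The 15 mesodermal, 10 endodermal and 11 organizer probe sets summed to at most 744, 300 and 368 there, and no endodermal marker exceeded 81.8 on any array. In injected explants the ectodermal sum was 10133 to 23932, and the sums of the other 3 lists were at most 1061, 321 and 306. Among single markers, vegt.L at stage 12 was higher in injected explants (mean log2 of 7.11 against 5.11). So were myod1.L (6.14 against 5.30) and sox17b.1.S (6.12 against 5.29) at stage 10.5. Lower in injected explants were gata6.L (5.07 against 6.08) and foxa1.S (5.62 against 6.31) at stage 12, and fgf8.L (5.21 against 5.72) at stage 10.5. All were named after their values were seen. The part of the markers in the dlx changes was not tested.

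In uninjected ectoderm at stage 12 both dlx3 probe sets ranked high on the array, dlx5.L and dlx6.S somewhat lower, dlx2.L varied and dlx2.S was dim. At stage 10.5 dlx2.L was dim as well, and the ranks of dlx3.L, dlx3.S, dlx5.L and dlx6.S overlapped. These ranks compare each probe set with all others on its array and do not order the amounts of RNA between genes. The dlx3.S intensity was 686, 1958 and 432 in experiments 1, 2 and 3 at stage 10.5, and 2267, 1824 and 2159 at stage 12. It lay above 85.3% to 95.4% of all probe sets at stage 10.5 and above 96.7% to 98.0% at stage 12. The signal of dlx3.L was 578, 1300 and 166 at stage 10.5, and 2089, 1800 and 1800 at stage 12. Thus the early uninjected arrays were spread widely and the late ones lay close together. For dlx5.L, uninjected arrays read 355, 1188 and 307 at stage 10.5 and 481, 728 and 665 at stage 12. For dlx6.S they read 373, 1009 and 162, and later 296, 599 and 589. The probe set of dlx2.L read 30.4, 57.5 and 38.3 at stage 10.5, above 33.6% to 40.2% of probe sets, and 803, 290 and 227 at stage 12. Its late level therefore differed between experiments more than that of any other dlx probe set tested (SD 1.10 on the log2 scale, against 0.09 to 0.29).

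**Figure D1:**
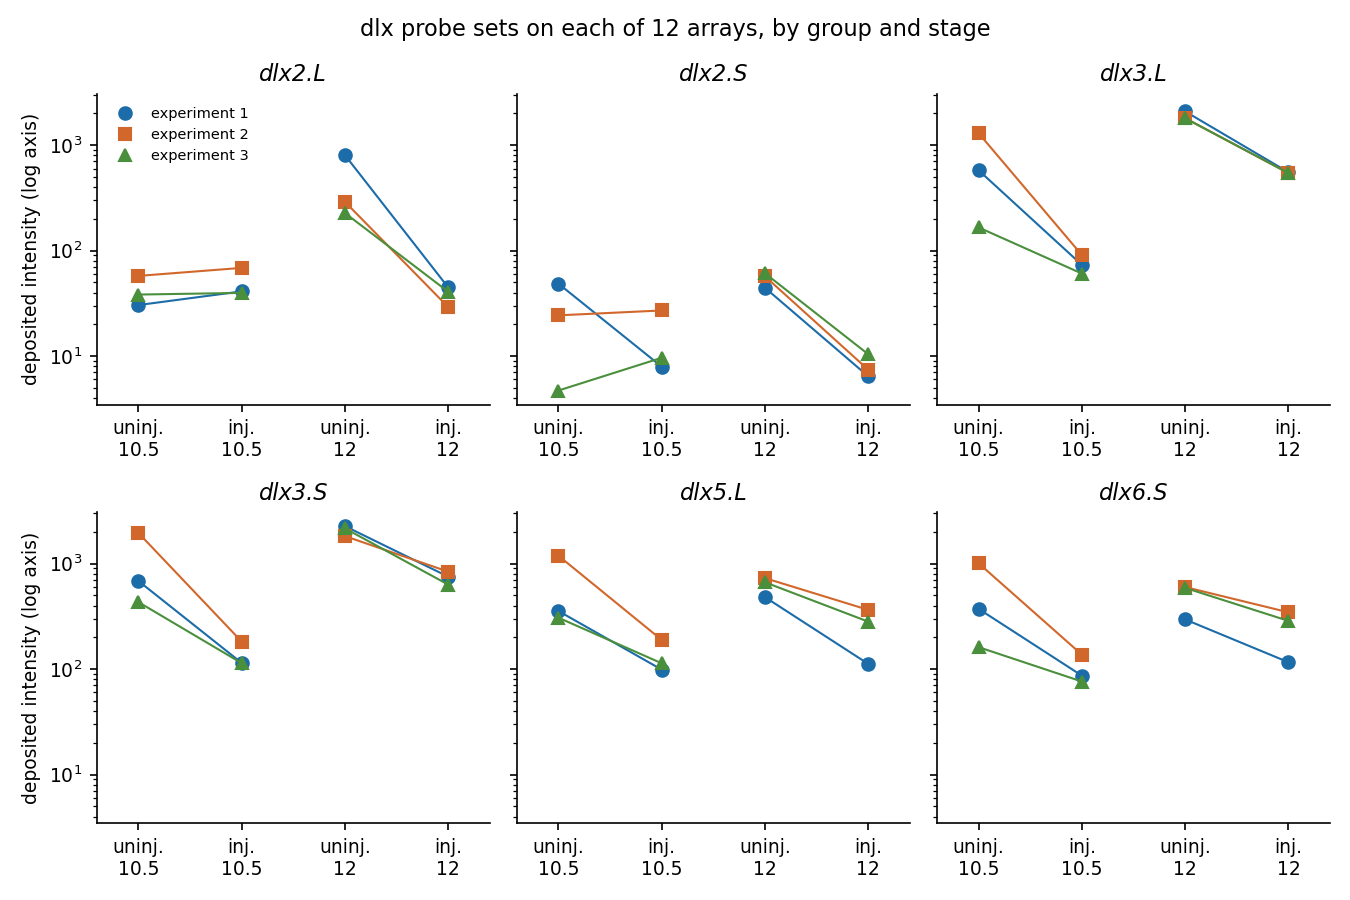
Deposited intensity (log axis) of the 6 dlx probe sets on each array, by group (uninjected or injected) and stage (10.5 or 12), with a line joining the arrays of an experiment within a stage. For dlx3, dlx5 and dlx6 every injected array lies below its uninjected partner at both stages, whereas dlx2.L separates at stage 12 alone.

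At stage 10.5 Geminin-injected ectoderm had much lower signal for both dlx3 copies, dlx5.L and dlx6.S, and no change that passed for dlx2.L. Of the 5 probe sets tested 4 fell and none rose, where 7.06% of all probe sets tested fell and 3.31% rose. The same 4 fell at least 1.5-fold in each of the 3 pairs, as did 3.87% of all probe sets tested, while 1.39% rose by as much in each pair. The median change of the 5 was -1.92 on the log2 scale, against 0.05 over all probe sets tested. In a bulk sample fewer cells that express a gene and less RNA per cell cannot be told apart.

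Injected explants read 114, 182 and 114 for dlx3.S, which was 16.7%, 9.3% and 26.3% of the uninjected partner. The fall was 2.63 ± 0.24 (limma's SE, n = 3 pairs), 6.21-fold, with adjusted p = 7.42e-05. For dlx3.L they read 73.2, 90.8 and 60.6, that is 12.7%, 7.0% and 36.5% of the partner. Its fall was 2.57 ± 0.32 or 5.93-fold (adjusted p = 0.000411). All 3 injected arrays lay below all 3 uninjected ones for both copies, and the injected arrays were closer to each other (SD 0.19 and 0.27) than the uninjected ones (SD 0.67 and 1.14). The dimmest uninjected value of both copies was that of experiment 3, and the size of each fall depends on the uninjected partner.

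The injected values of dlx5.L were 98.8, 189.0 and 113 (27.8%, 15.9% and 36.9% of the partner), a fall of 1.92 ± 0.23 or 3.79-fold with adjusted p = 0.000315. Those of dlx6.S were 86.7, 137 and 76.2 (23.3%, 13.6% and 47.2%), a fall of 1.90 ± 0.27 or 3.73-fold with adjusted p = 0.000812. Again no injected array reached an uninjected one, as was the case for 8.29% of all probe sets tested. In dlx2.L the injected arrays read 41.0, 68.5 and 39.7, a difference of 0.19 ± 0.22 (adjusted p = 0.705, 95% interval -0.30 to 0.68). The dim dlx2.S read 7.92, 27.05 and 9.63 in injected and 48.6, 24.3 and 4.7 in uninjected explants, with no common direction in the 3 pairs.

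The 4 falls had the same order over experiments: largest in pair 2 (-3.59 for dlx3.L, -3.47 for dlx3.S, -2.62 for dlx5.L, -2.76 for dlx6.S) and smallest in pair 3 (-1.17, -1.81, -1.31 and -0.88). The rise of gmnn.L was also largest in pair 2 (5.96) and smallest in pair 3 (3.43), with 4.42 in pair 1. At stage 12 gmnn.L again rose most in pair 2 (5.01) and least in pair 3 (1.43). The uninjected partner in pair 3 was the library that read 4576 for gmnn.L. Injected gmnn.L was close in experiments 2 and 3 (13754 and 13436) and lowest in experiment 1 (3203). Pair 2 had the smallest stage 12 fall of dlx3.S (-0.91), dlx5.L (-0.83) and dlx6.S (-0.66). That of dlx2.L was smallest in pair 3 (-2.10) and largest in pair 1 (-3.46). The falls of dlx3.L hardly differed (-1.47, -1.49 and -1.51). The orders thus ran together at stage 10.5, where all 4 falls were read from the same arrays and are not separate observations. Uninjected log2 signal of dlx3.L, dlx3.S, dlx5.L and dlx6.S was lowest there in experiment 3 (7.63, 8.98, 8.48 and 7.59). It was highest in experiment 2 (9.65, 10.31, 9.51 and 9.25). At stage 12 dlx3.S, dlx5.L and dlx6.S did not follow the order of gmnn.L, and dlx2.L shared with it only the place of pair 3. The place of pair 3 in the gmnn.L order rests on that uninjected library. With 3 pairs a stage neither was tested. Limma's SE comes from 1 spread shared by both stages; from the arrays of stage 10.5 alone it was 0.37 for dlx3.L and 0.26 for dlx3.S. Without pair 2 or pair 3, the dlx3.L change was -2.06 or -3.27, the dlx5.L change -1.57 or -2.23 and the dlx6.S change -1.47 or -2.41, and all passed.

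**Figure D2:**
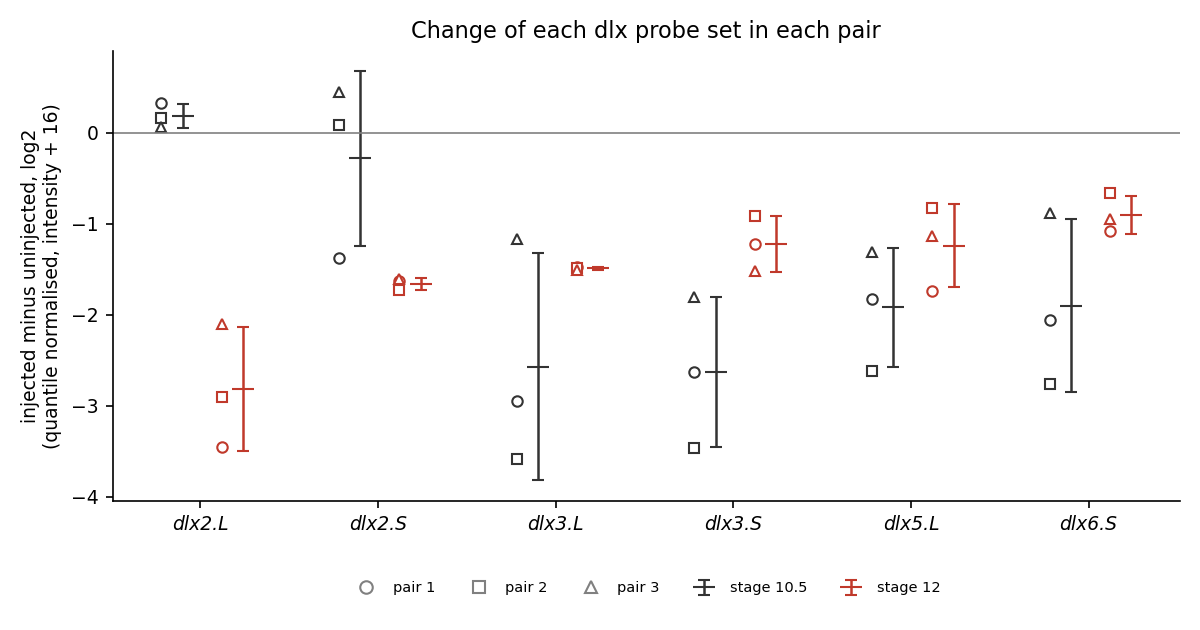
Injected minus uninjected log2 value of each dlx probe set in each pair of arrays (open symbols), with the mean and SD of the 3 pairs (bars), at stage 10.5 (black) and stage 12 (red). The 3 late values of dlx3.L lie between -1.51 and -1.47, and its early values between -3.59 and -1.17.

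At stage 12 each tested dlx probe set was lower in Geminin-injected ectoderm, with dlx2.L now changed most, 7.05-fold. All 5 fell, where 17.6% of all probe sets tested fell and 23.5% rose. That balance of 2048 lower and 2733 higher calls was 2275 and 2238 on the deposited scale and 894 and 615 without the replicate block. The median was -1.24, against 0.09 over all probe sets tested. Each of the 5 fell at least 1.5-fold in every pair, as did 8% of all probe sets tested, while 4.65% rose by as much. On the normalised scale every injected array of the 5, and of dlx2.S, lay below every uninjected one, which held for 16.7% of all probe sets tested. In deposited intensity dlx6.S overlapped, since the injected array of experiment 2 (346) was above the uninjected array of experiment 1 (296). The median intensity of these arrays was 77.05 and 50.07.

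The injected dlx2.L values were 44.7, 29.1 and 40.7, or 5.56%, 10.04% and 17.9% of the uninjected partner. The fall of 2.82 ± 0.22 had adjusted p = 1.61e-05, or 0.000148 with an SE of 0.26 from the arrays of stage 12 alone. With experiments 2 and 3 averaged into 1 it was 2.98 ± 0.24, and over fits without 1 pair the change ranged from -3.18 to -2.50. The injected level lay close to that of stage 10.5, in the dim range of the array (above 28.3% to 48.4% of probe sets), so the true fall may be larger than the measured one. Its .S copy was measured at 6.4, 7.4 and 10.4 in injected and 44.3, 56.9 and 60.8 in uninjected explants, 13.0% to 17.1% of the partner. In the fit without a signal filter the change of dlx2.S was -1.66 ± 0.27 with adjusted p = 0.00067.

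Injected dlx3.L read 553, 543 and 543, which was 26.5%, 30.2% and 30.2% of the partner. Its fall was 1.49 ± 0.32 or 2.80-fold (adjusted p = 0.00413), with an SE of 0.12 from the arrays of stage 12 alone. Injected dlx3.S read 752, 838 and 632, or 33.2%, 46.0% and 29.3% of the partner, a fall of 1.22 ± 0.24 or 2.32-fold (adjusted p = 0.00254). Both copies thus stayed well above their injected level of stage 10.5 and below every uninjected late array. Values of dlx5.L were 112, 364 and 281 (23.26%, 49.98% and 42.33%), a fall of 1.24 ± 0.23 (adjusted p = 0.00185). Values of dlx6.S were 116, 346 and 286 (39.3%, 57.7% and 48.6%), the smallest fall of the family, 0.90 ± 0.27 or 1.87-fold (adjusted p = 0.0197). It did not pass without the replicate block (adjusted p = 0.141), nor in the paired fits without pair 1 or without pair 3 (0.0879 and 0.0647). Without both the block and the library with high gmnn.L signal, dlx3.L (-1.56, adjusted p = 0.0704) and dlx6.S (-0.83, adjusted p = 0.253) did not pass, and the other 3 did.

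The injected against uninjected change of dlx2.L was lower at stage 12 than at stage 10.5 by 3.01 ± 0.32 (n = 6 pairs, adjusted p = 0.00108), and that of dlx3.S was higher by 1.42 ± 0.34, its fall being smaller at stage 12 (adjusted p = 0.0343). Over all probe sets tested 3.97% had a lower and 1.80% a higher difference. These comparisons use the same arrays as those within each stage. Low signal bounds the value of dlx2.L: uninjected dlx2.L stood at 5.75 (log2) at stage 10.5, and the stage 12 fall would have brought it to 2.93, under the 5th percentile of all values of 4.43. A fall of that size could therefore not have been measured in dlx2.L at stage 10.5. The dlx3.S difference was near the threshold. It did not pass on the deposited scale (1.03, adjusted p = 0.0806), without the replicate block (adjusted p = 0.235) or with experiments 2 and 3 of stage 12 averaged (adjusted p = 0.0555). Nor did it pass without pair 1 or 2 of stage 10.5 (1.42 and 1.00) or without pair 1 or 2 of stage 12 (1.42 and 1.26). The differences of dlx3.L (1.08 ± 0.46, adjusted p = 0.177), dlx6.S (1.00 ± 0.38, adjusted p = 0.139) and dlx5.L (0.69 ± 0.33, adjusted p = 0.227) pointed the same way and did not pass. Without pair 3 of stage 10.5 those of dlx3.L (1.78, adjusted p = 0.00999) and dlx6.S (1.51, adjusted p = 0.0242) passed. The dlx2.L difference did not pass without the replicate block (adjusted p = 0.0694). Its SE pools both stages, where the SD of the dlx2.L pairs was 0.13 (stage 10.5) and 0.68 (stage 12). For dlx2.S, in the fit without a signal filter, the difference was -1.38 ± 0.38 and did not pass (adjusted p = 0.0602).

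Between the stages, dlx2.L and both dlx3 copies rose in uninjected ectoderm, and dlx3, dlx5.L and dlx6.S rose in injected ectoderm. In uninjected explants dlx2.L rose by 2.92 ± 0.45 (7.59-fold, adjusted p = 0.000509), dlx3.L by 1.80 ± 0.43 (adjusted p = 0.00773) and dlx3.S by 1.16 ± 0.30 (adjusted p = 0.0116). Without experiment 1 of stage 12 the dlx2.L rise was 2.30, and without experiment 3 of stage 10.5 that of dlx3.L was 1.14; both passed. The 3 that rose, of 5 tested, compare with a background where 15.2% of all probe sets tested rose and 16.5% fell. These 3 had every late array above every early one on the normalised scale, as did 21.8% of all probe sets tested. In deposited intensity dlx3.S overlapped, with 1958 in experiment 2 at stage 10.5 and 1824 in experiment 2 at stage 12. Those arrays had median intensities of 143.1 and 76.11. Neither dlx5.L (0.42 ± 0.30, 95% interval -0.23 to 1.06) nor dlx6.S (0.43 ± 0.38, -0.39 to 1.26) passed. The arrays of dlx5.L and dlx6.S overlapped between stages, with experiment 2 of stage 10.5 at the top. In the fit without a signal filter the dim dlx2.S rose by 1.06 ± 0.32 in uninjected explants (adjusted p = 0.028). Its arrays overlapped in deposited intensity, with 48.6 in experiment 1 at stage 10.5 and 44.3 in experiment 1 at stage 12. The medians of those arrays were 73.83 and 50.07. In injected explants dlx2.S changed by -0.32 ± 0.32 (adjusted p = 0.579).

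In injected explants dlx3.L rose by 2.88 ± 0.43 (7.37-fold, adjusted p = 0.0013), dlx3.S by 2.58 ± 0.30 (5.96-fold, adjusted p = 0.000425), dlx6.S by 1.44 ± 0.38 (adjusted p = 0.0239) and dlx5.L by 1.10 ± 0.30 (adjusted p = 0.0258). These 4 of 5 compare with 7.82% of all probe sets that rose and 8.49% that fell. All 4 had every late array above every early one on the normalised scale, which held for 17.7% of all probe sets tested. In deposited intensity the injected arrays of dlx5.L and dlx6.S overlapped between the stages. Experiment 1 of stage 12 (112 and 116) was below experiment 2 of stage 10.5 (189 and 137). Median intensity was 49.05 on the former array and 145.68 on the latter. The injected dlx2.L level was 5.94 ± 0.11 at stage 10.5 and 5.85 ± 0.56 at stage 12 (SD, n = 3), a difference of -0.08 with a 95% interval of -1.05 to 0.89. The split of calls between the stages depended on the scaling. Of the calls over all probe sets 47.8% were higher in uninjected and 48.0% in injected explants, against 62.2% and 64.4% with median centring and 35.9% and 24.3% on the deposited scale. On the deposited scale the median of all probe sets was -0.23 and -0.20. Relative to that median dlx3.L was 2.10 and dlx3.S 1.52 higher in uninjected explants and 2.84 and 2.53 higher in injected ones, while dlx3.S in uninjected explants, and dlx5.L and dlx6.S in injected ones, did not pass on that scale (adjusted p = 0.0754, 0.512 and 0.307). With experiments 2 and 3 averaged dlx5.L and dlx6.S in injected explants did not pass either (adjusted p = 0.125 and 0.114). The dlx5.L rise also missed without injected experiment 1 or 2 of stage 10.5, or 2 or 3 of stage 12 (adjusted p of 0.0632 to 0.103). That of dlx6.S missed without injected experiment 2 or 3 of stage 10.5, or 2 or 3 of stage 12 (0.0582 to 0.0918).

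**Figure D3:**
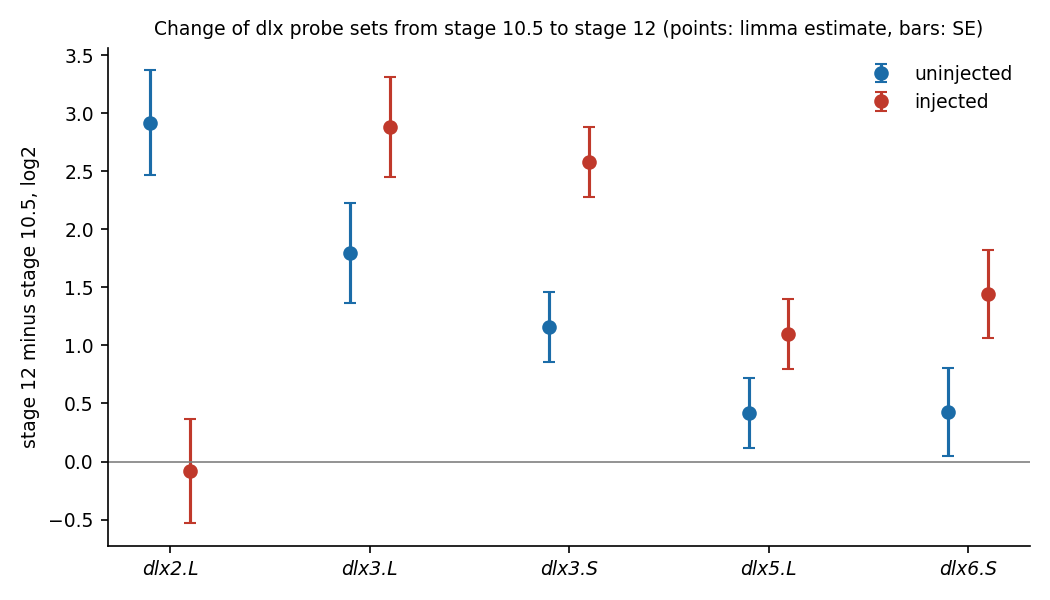
Change from stage 10.5 to stage 12 of the 5 tested dlx probe sets, on the log2 scale, in uninjected (blue) and injected (red) explants; points are limma's estimates and bars their SE. The injected point lies above the uninjected one for dlx3, dlx5.L and dlx6.S and near 0 for dlx2.L alone.

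Put in order, the 4 groups gave 3 patterns of level. For dlx2.L, uninjected stage 10.5 (5.75 ± 0.20, SD, n = 3), injected stage 12 (5.85) and injected stage 10.5 (5.94) overlapped, and uninjected stage 12 (8.67 ± 1.10) stood apart above them. For dlx3.L the order was injected stage 10.5 (6.37 ± 0.27), uninjected stage 10.5 (8.94 ± 1.14), injected stage 12 (9.25 ± 0.26) and uninjected stage 12 (10.74 ± 0.24). The middle groups overlapped, and so they did for dlx3.S (9.63 ± 0.31 injected at stage 12, 9.69 ± 0.67 uninjected at stage 10.5), between 7.06 ± 0.19 and 10.85 ± 0.24. Injected late ectoderm therefore had dlx3 signal within the range of uninjected early ectoderm. For dlx5.L and dlx6.S the order was injected stage 10.5 (7.0 ± 0.15 and 6.67 ± 0.16), injected stage 12 (8.11 ± 0.53 and 8.10 ± 0.48), uninjected stage 10.5 (8.92 ± 0.53 and 8.57 ± 0.87) and uninjected stage 12 (9.34 ± 0.09 and 9.00 ± 0.29). In these 2 genes the lowest group stood apart and the neighbours above it overlapped.

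The dlx3 copies followed each other at r = 0.98 over the 12 arrays, and dlx5.L and dlx6.S, which sit on different chromosome copies, at 0.96. Between the dlx3 copies and the dlx5 and dlx6 probe sets r was 0.87 to 0.92. With dlx2.L it was 0.76 for dlx2.S, 0.56 and 0.60 for the dlx3 copies, and 0.47 and 0.37 for dlx5.L and dlx6.S. The arrays fall into 4 groups, and these values describe the group pattern rather than independent samples.

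Genes of the BMP pathway that signals to ectoderm were read beside the dlx genes, from lists chosen with earlier results of these data known. Their counts stand against the shares over all probe sets tested, of which 7.06% fell and 3.31% rose at stage 10.5, and 17.6% fell and 23.5% rose at stage 12, with medians of 0.05 and 0.09. The ligand bmp4.S fell at both stages (-1.57, adjusted p = 0.00163, and -1.16, adjusted p = 0.00381), while bmp2.L rose at both (0.96 and 0.73, adjusted p = 0.0053 and 0.00858). Of 5 ligand probe sets tested, 2 fell and 2 rose at stage 10.5, and 3 fell and 2 rose at stage 12. Of 11 receptor and Smad probe sets, which relay the signal, 1 fell at stage 10.5 (smad4.L, -0.84, with -0.42 for its other probe set), and 3 fell and 2 rose at stage 12, among them smad9.S (-1.63). These shares are near those over all probe sets and are no result about the list. Of 12 antagonists and feedback regulators 5 fell at stage 10.5 and 9 fell and 2 rose at stage 12. They included the secreted regulator szl.L (-2.83 and -1.58) and the pseudoreceptor gene bambi.L (-1.69 and -1.04).

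Of 15 BMP-responsive transcription factor genes 10 fell at stage 10.5 (median -0.99, against 0.05 over all probe sets tested, of which 7.06% fell) and 15 at stage 12 (median -1.40, against 0.09, with 17.6% lower). These counts use the brightest probe set per gene symbol. The other probe set was also lower for gata2.L (-2.91 and -1.82) and id3 (-0.82 and -0.50). It changed little for msx2.L (-0.19 and -0.04) and was higher for ventx1.1.L (0.33 and 0.41). Among the genes with the smallest p, gata2.L (-2.70 and -1.76) and msx1.L (-2.43 and -1.91) fell at both stages, as the dlx3 copies did. Others had a fall that passed at stage 12 alone, among them gata3.S (-0.88, adjusted p = 0.0831, then -2.39) and id4.S (-0.48, adjusted p = 0.15, then -1.47). For both genes uninjected signal rose between the stages, by 4.18 and 1.65, as did that of dlx2.L. Their difference between the stages did not pass (adjusted p = 0.057 and 0.0561). Both are chosen examples. Of the 15 genes 7 rose and 1 fell between the stages in uninjected explants, against 15.2% and 16.5% of all probe sets tested. Whether such rises go with a fall at stage 12 alone was not tested. Of 9 regulators of non-neural ectoderm 8 fell at stage 10.5 (median -1.33) and 6 at stage 12 (median -0.74). Examples are tfap2a.L (-1.48 and -0.95), a factor shared by epidermis and neural crest, and the grainyhead factor grhl3.L (-1.65 and -1.24). In this list too the counts use the brightest probe set. The other probe set gave -0.07 and -0.28 for foxi4.2.L, -1.14 and -0.27 for klf17.L, and 0.03 and -0.39 for klf5.S.

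Of 10 keratin genes 5 fell at stage 10.5, where 7.06% of all probe sets fell, and 5 fell and 1 rose at stage 12, where 17.6% fell and 23.5% rose. The median of the list was -0.30 and -0.51, and the epidermal keratin gene krt12.4.L fell by 2.56 and 1.73. Border and preplacodal genes had 4 of 6 lower at stage 10.5 and 3 lower with 1 higher at stage 12. Pax3.L fell at both stages (-1.17 and -1.44). Of its other probe sets, 1 gave 0.27 at stage 10.5 and -0.21 at stage 12, and another -1.18 and -1.21. The gene zic1.S fell (-1.16) and then rose (0.81), with -0.94 and -0.16 for its other probe set. Neural plate genes split, with 3 of 10 lower and 1 higher at stage 10.5 and 5 lower and 5 higher at stage 12, where 17.6% and 23.5% of all probe sets were called: sox2.L fell at both stages (-1.38 and -1.24) and zic2.L rose at both (0.84 and 1.93). The 2 tested probe sets of the cement gland and hatching gland list were agr2.L and agr2.S. Neither passed at stage 10.5 (-0.26 and -0.59), and both fell at stage 12 (-2.19 and -2.51). Their uninjected signal rose by 3.00 and 4.37 between the stages. The list did not hold ag1.L, which fell at both stages (-2.37 and -1.83, adjusted p = 0.000537 and 0.00102). The agr2 values therefore do not speak for all such genes at stage 10.5.

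**Figure D4:**
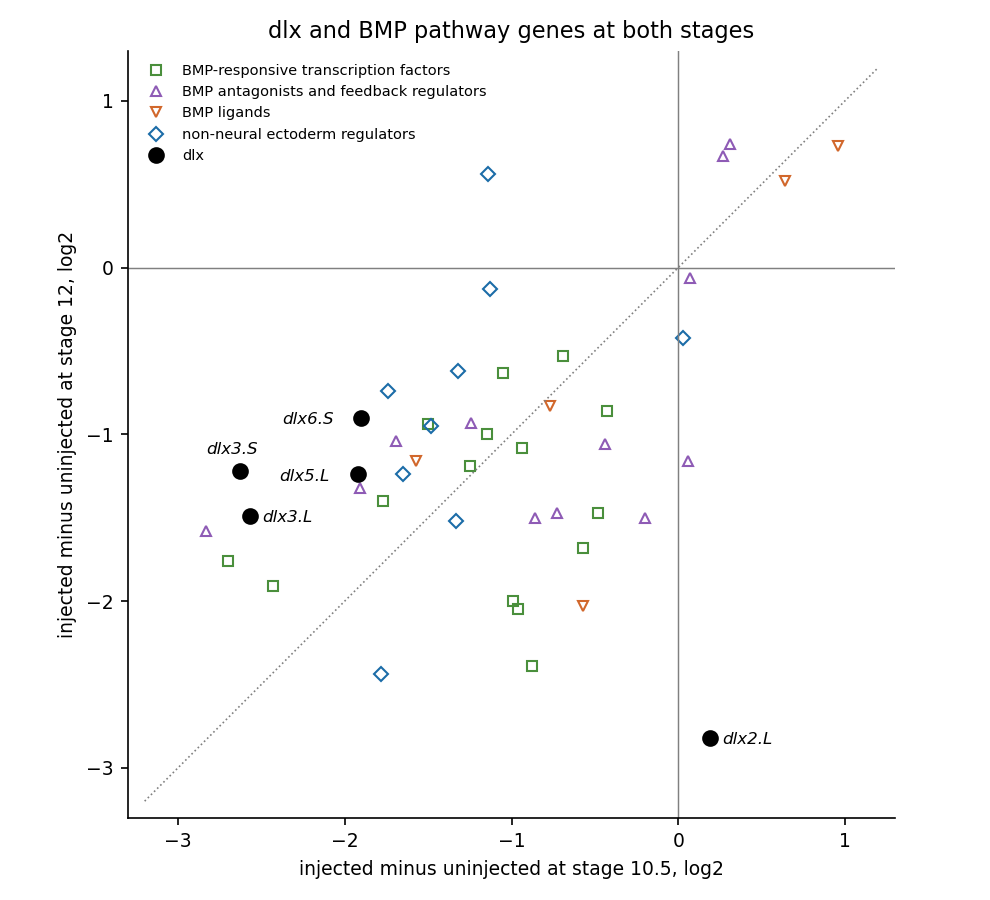
Injected minus uninjected log2 change at stage 10.5 (horizontal) against stage 12 (vertical) of the 5 tested dlx probe sets (filled circles) and of 4 gene lists (open symbols); the dotted line marks equal change. The dlx3, dlx5.L and dlx6.S points lie above the line, with a smaller fall at stage 12, and dlx2.L lies far below it at 0.19 and -2.82.

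The genes whose levels were most like each dlx gene were sought among 7484 tested probe sets of other genes with 1 symbol, by Pearson's r over the 12 arrays. For dlx2.L they were bcat1.L (0.985), fam3a.L (0.979), gmppa.L (0.974), dhcr7.S (0.970) and tesc.L (0.969). These genes were chosen for following dlx2.L over the same arrays, so their changes are no separate result. All 5 had changes of -0.16 to -0.01 at stage 10.5, none of which passed, and of -2.15 to -1.57 at stage 12. For dlx3.L they were ckap4.S (0.983), ag1.L (0.982), astl2d.1.L (0.977), ctbp2l.S (0.976) and slc22a4.L (0.974). For dlx3.S they were ckap4.S (0.972), glrx5.L (0.970), a gata2.L probe set (0.963), ctbp2l.S (0.962) and tuba1cl.3.L (0.956). The copies of dlx3 thus shared ckap4.S and ctbp2l.S, and the latter changed little (-0.36 and -0.24, neither of which passed), since r compares shape and not size. For dlx5.L they were bambi.L (0.973), bambi.S (0.966), the Notch ligand gene dll1.L (0.962), efna4.L (0.960) and bmp4.S (0.960). For dlx6.S they were bambi.L (0.971), bmp4.S (0.966), ptafr.L (0.949), cnn2.S (0.949) and zmiz2.L (0.946). Both lists held bambi.L and bmp4.S. Since dlx5.L and dlx6.S correlated at 0.96, and the dlx3 copies at 0.98, shared members are no separate result. Between 31 (dlx5.L) and 120 (dlx3.L) named probe sets exceeded r = 0.9, so the genes named are the nearest of many.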

How the data were processed

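Each deposited value is an intensity of a probe set on a linear scale, from one-colour Affymetrix Xenopus laevis arrays. No source used here names how the authors summarised, background-corrected or scaled it. Intensities were offset by 16, log2 transformed and quantile normalised, and the lowest 25% by mean signal were left out. The offset understates changes of dim genes. The number of arrays limits the precision. Models were fitted to the 12 arrays with limma 3.58.1 under R 4.3.3 (lmFit, then eBayes with trend), p-values were adjusted by Benjamini-Hochberg over 11618 probe sets and the threshold was 0.05. Injected against uninjected fits had the experiment within a stage as a block (4 residual degrees of freedom), since the design text pairs the samples and repeats the experiment 3 times per stage; deviations of same-numbered arrays correlated at 0.765 to 0.797 (stage 10.5) and 0.424 to 0.693 (stage 12). At stage 12 arrays of experiments 2 and 3 with different numbers correlated as much (0.555 and 0.497). Fits between stages had no block (8 residual degrees of freedom). No source used here says whether a group's samples had separate parents, and p-values measure the spread between these samples.

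Of all probe sets, 9304 had 1 annotated symbol, 195 had several and 5992 had none; symbols were updated through gene identifiers for 9227. Named are all dlx and gmnn probe sets, and the 5 named probe sets with the highest r to each tested dlx gene. In each pathway list, examples came from the 4 lowest p-values per injected against uninjected comparison (brightest probe set per symbol). Not all of these are named, so the examples are a choice. Some other list members are given for their further probe sets alone. The members and lists were chosen with earlier results of these data known. The fits were tested on simulated data. Alternatives were other scalings, offsets of 1 and 64, no filter or a 50% filter, no trend, other blocks, fits within a stage, arrays left out or averaged, and a count without a model.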

Additional observations from a re-analysis of the deposited data

Results flagged for a closer look

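The change of dlx2.L between injected and uninjected explants differed between the stages by -3.01 ± 0.32 (stage 12 minus stage 10.5, log2 scale, limma adjusted p = 0.00108), with all 3 pairs slightly higher in injected explants at stage 10.5 (0.07 to 0.33) and all 3 lower at stage 12 (-3.46 to -2.10). Uninjected dlx2.L was dim at stage 10.5, so a fall of that size could not have been measured there.

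The change of dlx3.S differed between the stages by 1.42 ± 0.34 (limma adjusted p = 0.0343), the fall being smaller at stage 12 (pairs of -1.52 to -0.91) than at stage 10.5 (-3.47 to -1.81). The call was lost under 11 of 16 alternatives, among them the deposited scale, no replicate block and experiments 2 and 3 of stage 12 averaged.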

How the results depend on the processing

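At stage 10.5 the falls of dlx3.L, dlx3.S, dlx5.L and dlx6.S passed under each of the 12 alternatives run for them (largest adjusted p = 0.0236), and dlx2.L passed under none (adjusted p of 0.345 to 0.999). At stage 12 dlx2.L, dlx3.S and dlx5.L passed under every alternative run for them (largest adjusted p = 0.0491). These were 14 for dlx3.S and dlx5.L and 13 for dlx2.L, which the 50% filter removed. The dlx6.S fall did not pass without the replicate block (-0.90) or without both the block and uninjected experiment 3 (-0.83), where dlx3.L (-1.56) also missed and 3 of 5 passed. With 1 pair left out dlx6.S gave -1.02 to -0.81, with adjusted p of 0.00321 to 0.253 over its alternatives. For the difference between the stages dlx3.S lost its call under 11 of 16 alternatives: 1.03 on the deposited scale and with median centring, 1.10 with an offset of 64, 1.42 without the trend, without the replicate block and with experiments averaged, 1.40 without the block and uninjected experiment 3, and 1.00 to 1.42 in 4 of the 6 fits with a pair left out. Those 6 fits spanned 1.00 to 1.83, and the call held without pair 3 of either stage (adjusted p of 0.0119 to 0.317 over all). That of dlx2.L was -3.01 without the replicate block (adjusted p of 0.000611 to 0.0694 over its alternatives). With a pair left out dlx3.L ranged from 0.57 to 1.78 and dlx6.S from 0.57 to 1.51. The number of dlx differences that passed was 2 in the fit reported, 1 to 4 with a pair left out, 0 without the block and otherwise 1 or 2; a 50% filter removed dlx2.L. Between the stages, dlx3.S in uninjected explants gave 1.29 on the deposited scale without passing. In injected explants dlx5.L gave 0.75 on the deposited scale, 0.96 with experiments averaged and 0.85 to 1.38 with 1 array left out, and dlx6.S gave 1.11, 1.31 and 1.22 to 1.69. The number that passed there was 4, against 2 under the first 2 settings and 2 to 4 with 1 array left out. A count of falls of at least 1.5-fold in each pair, made without a model, gave 4 and 5 of 5 dlx probe sets. A replicate block between stages changed no dlx call.

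Over all probe sets, calls at stage 10.5 numbered 1205, but 262 without the replicate block, 454 to 779 without 1 pair and 1830 from the arrays of that stage alone. At stage 12 they were 4781, but 1509 without the block and 1162 without the block and uninjected experiment 3. Differences between stages numbered 670, but 34 and 39 under those settings, 437 with an offset of 1, 379 with the 50% filter and 183 to 1033 without 1 pair. Between stages, calls were 3683 in uninjected explants, but 1375 on the deposited scale. In injected explants they were 1895, but 535 on that scale, 783 with experiments averaged and as few as 939 without 1 array. Summed over the pathway lists, 38 falls and 3 rises at stage 10.5 became 26 and 0 without the block, and 51 and 13 at stage 12 became 33 and 3. Dim signal limits what dlx2.S, and dlx2.L before stage 12, can show.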
